A study of Mus musculus with 12 samples.

Results

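A set of 10 genes of the goblet cell and its mucus (Muc2, Muc13, Tff3, Fcgbp, Clca1, Agr2, Zg16, Spdef, Retnlb and Klf4) was taken by gene symbol from the annotation of an Affymetrix 430A mouse array. Of the 10 genes, 9 had at least 1 probe set with that symbol, 15 probe sets in all among the 22626 tested, which stood for 12393 named genes. Muc2, the gel-forming mucin, is not analysed here, since no probe set carried its symbol. A gene with several probe sets was represented by the one of the highest mean signal, and the others are given beside it.

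The RNA came from colon epithelium, scraped off the tissue, of male mice aged 6 to 8 weeks, labelled C57BL/6. The groups were POR-null mice given quercetin, POR-null mice on the control diet, wild type (WT) mice given quercetin and WT mice on the control diet. POR-null mice lack cytochrome P450 reductase, the redox partner of microsomal cytochromes P450, and the driver of that deletion is not given in the sources used here. Quercetin is a plant flavonol, mixed into the feed at 6200 ppm (7 mg per mouse) for 24 h, after all groups had eaten the same soya-free powdered diet for 14 days. Each group had 3 arrays, and each array carried RNA pooled from 3 mice, so that a group stood for 9 mice. A p-value here measures the spread between such pools. Values are log2 signals as deposited, with array medians of 5.90 to 5.98.

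Goblet cells are the secretory cells of the gut epithelium that fill the lumen side with mucus. In the colon, that mucus is built on the mucin Muc2 and carries other secreted proteins, among them Fcgbp, Clca1, Zg16 and Tff3, while Muc13 is a mucin anchored in the apical membrane of epithelial cells. The goblet cell programme is set up by the transcription factors Atoh1, Spdef and Klf4, and Agr2 is an endoplasmic reticulum protein needed for mucin folding. Retnlb encodes a resistin-like protein that goblet cells secrete in response to bacteria and to type 2 immunity.

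Promoters of 6 of the 10 genes were in a RefSeq-derived table (GRCm38.p6), each running from 250 bases before the transcript start to 50 bases after it. Those of Fcgbp, Spdef and Agr2 are shown because these genes stand for the 3 patterns described next, namely close joint variation with other mucus genes, a negative correlation with them, and neither over all 12 arrays. Capitals mark CAGCTG, an E-box of the kind bound by basic helix-loop-helix factors such as Atoh1, and CACCC or its reverse complement GGGTG, an element bound by Krüppel-like factors, which include Klf4.
Fcgbp, chr7:28070986-28071285, plus strand: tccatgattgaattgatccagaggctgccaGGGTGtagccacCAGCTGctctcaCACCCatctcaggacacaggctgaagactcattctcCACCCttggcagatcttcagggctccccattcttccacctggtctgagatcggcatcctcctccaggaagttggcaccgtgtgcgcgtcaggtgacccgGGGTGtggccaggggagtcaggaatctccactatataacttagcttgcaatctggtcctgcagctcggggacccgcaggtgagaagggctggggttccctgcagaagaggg
Spdef, chr17:27728902-27729201, minus strand: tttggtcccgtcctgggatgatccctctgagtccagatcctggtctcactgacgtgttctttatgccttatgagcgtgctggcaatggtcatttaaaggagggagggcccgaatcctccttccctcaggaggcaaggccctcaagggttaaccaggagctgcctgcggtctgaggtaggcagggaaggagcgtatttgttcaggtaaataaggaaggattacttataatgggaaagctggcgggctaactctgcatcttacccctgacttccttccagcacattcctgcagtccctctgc
Agr2, chr12:35992675-35992974, plus strand: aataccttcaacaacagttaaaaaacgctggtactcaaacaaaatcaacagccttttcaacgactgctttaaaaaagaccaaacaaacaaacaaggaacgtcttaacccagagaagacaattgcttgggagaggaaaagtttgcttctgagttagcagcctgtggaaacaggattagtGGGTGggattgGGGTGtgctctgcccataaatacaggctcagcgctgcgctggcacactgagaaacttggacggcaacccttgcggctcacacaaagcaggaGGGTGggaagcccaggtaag
The Fcgbp promoter held 1 CAGCTG and 4 CACCC elements, counting both strands. In the Agr2 promoter there were 3 CACCC elements and no CAGCTG, and in that of Spdef there was neither. Among 32851 mouse promoters of the same length, 16.3% held CAGCTG and 57.5% held CACCC on either strand. A match describes letters in this window and is no evidence of binding.

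The labelled tissue was checked on colonocyte genes. Car1, a carbonic anhydrase of surface colonocytes, read 12.24 to 13.31 over the 12 arrays. The water channel Aqp8 read 9.52 to 11.14 and the chloride exchanger Slc26a3 read 9.83 to 10.88. A list of 15 small intestine genes had means of 6.24 to 8.38, the highest in WT control pool 1. On the control diet, 15 of the 15 were lower in POR-null than in WT pools. Of these, 4 (26.7%) had an unadjusted p under 0.05 by limma, against 6.79% of all probe sets, and none passed after adjustment. The part of gut region in the member differences was not tested. The brightest probe sets of Fcgbp, Clca1, Tff3, Zg16, Retnlb and Muc13 each had a mean signal above that of about 99.8% or more of all probe sets. Klf4 stood above 98.6%, Agr2 above 98.9% and Spdef above 89.4%.

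The members differed widely in how much they varied between pools. Spdef had an SD of 0.51 over the 12 arrays, Retnlb 0.43, Fcgbp 0.34, Agr2 0.28, Clca1 0.23 and Tff3 0.20. Klf4 had an SD of 0.12, Muc13 of 0.11 and Zg16 of 0.065. Over all tested probe sets the median SD was 0.14 and the 95th percentile 0.31. By their brightest probe sets, Spdef, Retnlb and Fcgbp thus lay among the most variable 5%, and Klf4, Muc13 and Zg16 below the median. Other probe sets ranked differently. The dimmer ones of Clca1 (SD 0.82) and Agr2 (SD 0.40) lay above the 95th percentile. Those of Klf4 (SD 0.23) and Muc13 (SD 0.18) lay above the median, and the other Zg16 probe sets (SD 0.126 and 0.062) below it. As linear signal, the highest array stood 3.03-fold above the lowest for Retnlb, 3.01-fold for Spdef and 2.14-fold for Fcgbp, against 1.19-fold for Zg16.

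Fcgbp, the IgG Fc binding protein that is a major constituent of colonic mucus, read 13.12, 13.14 and 13.72 in POR-null quercetin pools and 13.61, 13.62 and 13.55 in POR-null control pools. It read 13.40, 13.49 and 13.29 in WT quercetin pools and 13.53, 12.62 and 12.85 in WT control pools. WT control pools 2 and 3 were the lowest of the 12, while WT control pool 1 was close to the POR-null control pools.

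Clca1, a secreted metalloprotease of the mucus, read 13.45, 13.49 and 13.92 in POR-null quercetin pools and 13.71, 13.67 and 13.57 in POR-null control pools. The values were 13.46, 13.66 and 13.54 in WT quercetin pools and 13.64, 13.04 and 13.20 in WT control pools. Its second, much dimmer probe set covered 6.01 to 8.64, a 6.19-fold range, and had its lowest values, 6.08 and 6.01, in the same WT control pools 2 and 3. The 2 Clca1 probe sets correlated over the arrays with r = 0.83.

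Tff3, the intestinal trefoil peptide that goblet cells secrete with mucin, read 12.56, 12.56 and 12.88 in POR-null quercetin pools and 12.72, 12.95 and 12.80 in POR-null control pools. It read 12.57, 12.75 and 12.67 in WT quercetin pools and 12.80, 12.27 and 12.41 in WT control pools. Pools 2 and 3 of the WT control group were again the lowest of all, and the other 10 pools lay between 12.56 and 12.95. The trefoil genes Tff2 and Tff1, its neighbours in the GRCm38.p6 gene order, covered 5.99 to 6.83 and 9.10 to 9.68.

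Zg16, a lectin-like protein of the mucus that binds Gram-positive bacteria, was nearly level. Its brightest probe set averaged 13.38 ± 0.085 in POR-null quercetin pools, 13.39 ± 0.042 in POR-null control pools, 13.33 ± 0.10 in WT quercetin pools and 13.35 ± 0.031 in WT control pools (SD, n = 3 each). Its other probe sets covered 12.05 to 12.46 and 13.16 to 13.40. The highest signal of any probe set was 13.86 to 14.09 by array, and whether differences are flattened so near it was not tested.

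Muc13, the membrane mucin, averaged 12.51 ± 0.076 in POR-null quercetin pools, 12.54 ± 0.16 in POR-null control pools, 12.46 ± 0.097 in WT quercetin pools and 12.57 ± 0.13 in WT control pools (SD, n = 3 each). The groups overlapped. A second, dimmer Muc13 probe set averaged 9.09 ± 0.098 in POR-null quercetin pools, 9.04 ± 0.11 in POR-null control pools, 8.77 ± 0.17 in WT quercetin pools and 9.03 ± 0.19 in WT control pools (SD, n = 3 each). The correlation of the 2 Muc13 probe sets was only r = 0.23, so they gave different rankings of the arrays. Probe sets whose names end in s_at or x_at, as the brighter Muc13 probe set's does, may also match other transcripts.

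Retnlb read 12.28, 12.60 and 12.94 in POR-null quercetin pools and 13.27, 12.89 and 12.53 in POR-null control pools. It read 12.51, 12.68 and 12.78 in WT quercetin pools and 12.86, 12.03 and 11.67 in WT control pools. The lowest pools were once more WT control 2 and 3, and the highest was a POR-null control pool.

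Agr2 read 10.74, 11.34 and 11.72 in POR-null quercetin pools and 11.60, 11.58 and 11.10 in POR-null control pools. The values were 11.53, 11.10 and 11.41 in WT quercetin pools and 11.53, 11.62 and 11.39 in WT control pools. All 4 groups overlapped, and both the lowest and the highest array were POR-null quercetin pools. A second Agr2 probe set, near the middle of the signal range of the array, covered 5.13 to 6.63.

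Spdef, an ETS-family transcription factor needed for goblet cell maturation, read 8.46, 8.80 and 8.23 in POR-null quercetin pools and 8.58, 8.45 and 7.81 in POR-null control pools. It read 9.09, 8.19 and 7.80 in WT quercetin pools and 8.68, 9.39 and 9.22 in WT control pools. Here WT control pools 2 and 3 were the highest of the 12. Atoh1, the factor that commits cells to the secretory lineage, averaged 9.25 ± 0.39 in POR-null quercetin pools, 9.22 ± 0.34 in POR-null control pools, 9.37 ± 0.40 in WT quercetin pools and 9.59 ± 0.12 in WT control pools (SD, n = 3 each).

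Klf4, a zinc-finger factor of differentiating colonic epithelium, averaged 11.15 ± 0.047 in POR-null quercetin pools, 11.05 ± 0.062 in POR-null control pools, 11.03 ± 0.21 in WT quercetin pools and 11.02 ± 0.095 in WT control pools (SD, n = 3 each). The 12 arrays lay between 10.90 and 11.27. A second Klf4 probe set averaged 10.15 ± 0.085 in POR-null quercetin pools, 10.24 ± 0.22 in POR-null control pools, 10.10 ± 0.44 in WT quercetin pools and 10.22 ± 0.13 in WT control pools (SD, n = 3 each), and correlated with the first at r = 0.62.

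**Figure D1:**
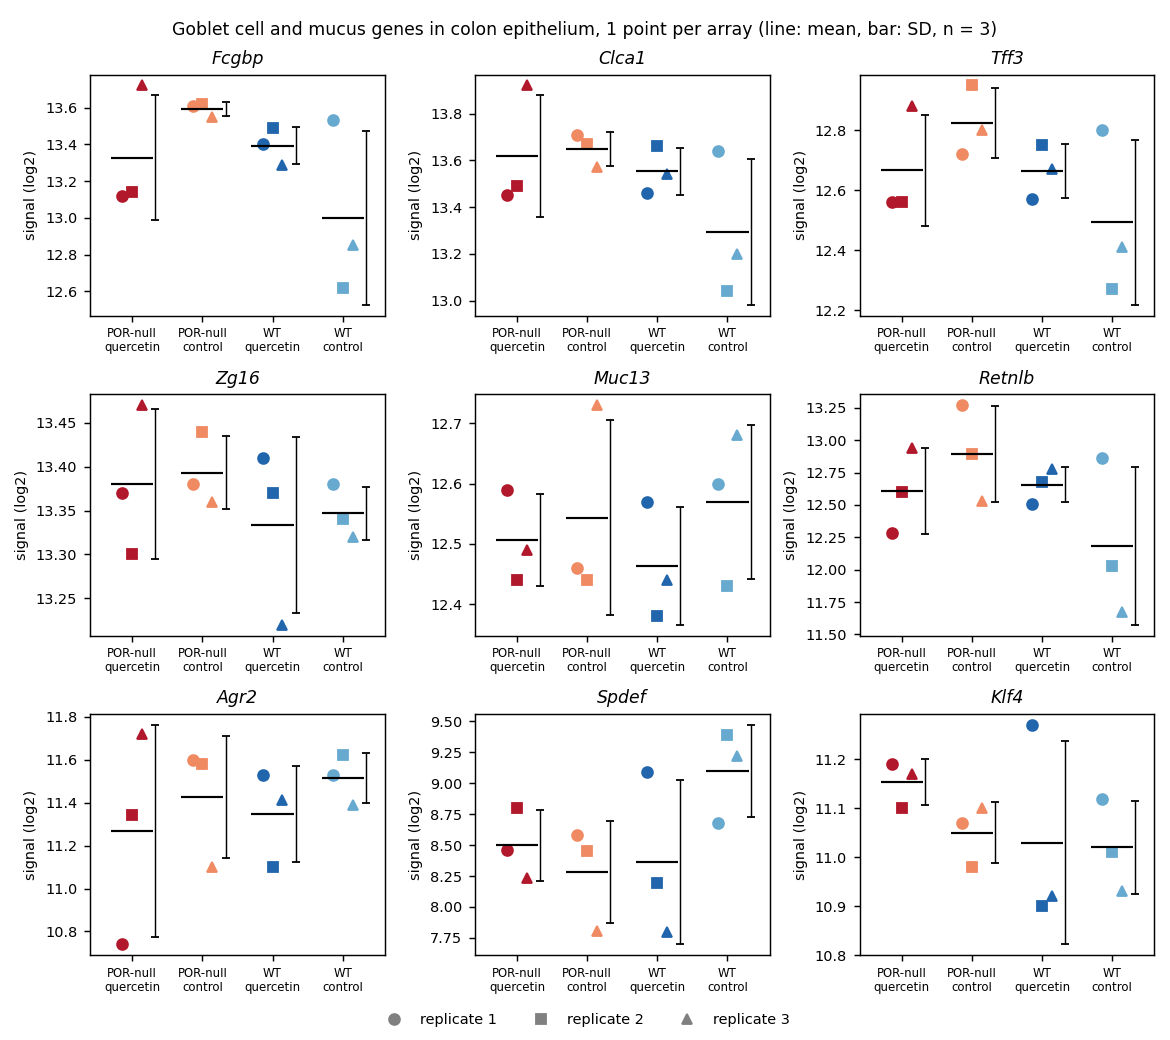
Deposited log2 signal (y axis) of the brightest probe set of the 9 measured genes in each of 12 arrays, by group (x axis). Points are arrays with the marker giving the replicate number, lines are group means and bars are SD over 3 arrays, and axes do not start at 0. WT control pools 2 and 3 are lowest for Fcgbp, Clca1, Tff3 and Retnlb and highest for Spdef.

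On the control diet, the mucus genes Fcgbp, Clca1, Tff3 and Retnlb had higher means in POR-null than in WT pools, and Spdef had a lower one, but none passed the test after adjustment over all probe sets. Fcgbp averaged 13.59 ± 0.038 in POR-null and 13.00 ± 0.47 in WT control pools (SD, n = 3 each), a log2 difference of 0.59 (SE 0.20, 1.51-fold, 95% interval 1.12 to 2.04). Retnlb averaged 12.90 ± 0.37 in POR-null and 12.19 ± 0.61 in WT pools (SD, n = 3 each), a log2 difference of 0.71 (SE 0.26, 1.64-fold, 95% interval 1.10 to 2.43). The Clca1 difference was 0.36 (SE 0.15) and that of Tff3 was 0.33 (SE 0.13) on the log2 scale. The dimmer Clca1 probe set, whose groups overlapped, had a larger log2 difference of 1.46 (SE 0.48, unadjusted p 0.0090, adjusted p 0.710 by limma). Spdef averaged 8.28 ± 0.41 in POR-null and 9.10 ± 0.37 in WT pools (SD, n = 3 each), a log2 difference of -0.82 (SE 0.30, 0.57-fold, 95% interval 0.36 to 0.89).

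The POR-null control pools of Fcgbp all lay above the WT control pools and those of Spdef all below them. The groups of Clca1, Tff3 and Retnlb overlapped through WT control pool 1. Of 9 genes, 2 thus had groups that did not overlap, against 9.67% of all probe sets in this comparison. By the limma test, 0 of 9 genes had an adjusted p under 0.05, as did 0% of all probe sets, and the adjusted p of the 5 genes ran from 0.710 to 0.734. At an unadjusted p under 0.05 there were 5 of 9, with p of 0.0114 for Fcgbp, 0.0178 for Spdef, 0.0189 for Retnlb, 0.0282 for Tff3 and 0.0343 for Clca1 by limma, against a background of 6.79% of all probe sets. These genes vary together between pools and are not separate pieces of evidence. The other 4 genes, Zg16, Klf4, Muc13 and Agr2, had log2 differences of 0.05, 0.03, -0.03 and -0.09, with 95% intervals within -0.54 and 0.37. The median over the 9 genes was 0.05, and over all tested probe sets it was -0.01.

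These differences leaned on single pools, WT control pools 2 and 3 among them. Without WT control pool 2 the log2 difference was 0.40 for Fcgbp, 0.23 for Clca1, 0.22 for Tff3, 0.63 for Retnlb and -0.67 for Spdef. Without WT control pool 3, that of Retnlb was 0.45. Leaving out POR-null control pools moved some of them as well. That of Spdef was -0.58 without POR-null control pool 3 and -0.97 without pool 1. Retnlb had 0.52 without POR-null control pool 1 and 0.89 without pool 3, and Tff3 had 0.27 without pool 2. Without WT control pool 1 the values were 0.86, 0.53, 0.48, 1.05 and -1.03 for Fcgbp, Clca1, Tff3, Retnlb and Spdef, with a smallest adjusted p of 0.0600 by limma, for Fcgbp. With arrays weighted by their agreement with the fit, 3 of the 9 genes passed, namely Fcgbp (0.74, adjusted p 0.0409 by limma), Retnlb (0.99, adjusted p 0.0393) and Tff3 (0.47, adjusted p 0.0453), among 399 probe sets called. That fit gave WT control pool 3 a weight of 2.49 and WT control pool 1 one of 0.53. POR-null control pool 2 had a weight of 2.72, against 0.61 for pool 1 and 0.45 for pool 3. The calls thus rest largely on 1 array in each group.

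Quercetin in WT mice showed the same genes on the same sides of WT control, in a comparison that shares those control pools. Spdef averaged 8.36 ± 0.66 in WT quercetin and 9.10 ± 0.37 in WT control pools (SD, n = 3 each), a log2 difference of -0.74 (SE 0.30, unadjusted p 0.0294, adjusted p 0.957 by limma). The log2 differences were 0.47 for Retnlb (SE 0.26), 0.39 for Fcgbp (SE 0.20), 0.26 for Clca1 (SE 0.15) and 0.17 for Tff3 (SE 0.13), all with groups that overlapped. No member had groups without overlap by its brightest probe set, against 9.31% of all probe sets. Those of Klf4, Zg16, Muc13 and Agr2 were 0.01, -0.01, -0.11 and -0.17. By limma, 0 of 9 genes passed after adjustment (0% of all probe sets), and 1 of 9 had an unadjusted p under 0.05, against 5.15%. The dimmer Muc13 probe set had a log2 difference of -0.26 (unadjusted p 0.0479, adjusted p 0.957 by limma). Without WT control pool 2 the Tff3 difference was 0.06 and that of Fcgbp 0.20, and without pool 3 that of Retnlb was 0.21.

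Quercetin in POR-null mice gave differences of the other sign for these genes, all within the spread of the pools. Fcgbp averaged 13.33 ± 0.34 in POR-null quercetin and 13.59 ± 0.038 in POR-null control pools (SD, n = 3 each), a log2 difference of -0.27 (95% interval -0.70 to 0.17). Retnlb had a log2 difference of -0.29, Tff3 and Agr2 of -0.16 each, Clca1 of -0.03 and Spdef of 0.22. Klf4 had one of 0.10, Muc13 of -0.04 and Zg16 of -0.01. By limma, 0 of 9 genes passed after adjustment (0% of all probe sets) and 0 of 9 had an unadjusted p under 0.05, against 2.82%. All 3 POR-null quercetin pools of the dimmer Clca1 probe set (7.09, 7.48 and 7.60) lay below the POR-null control pools (8.64, 8.28 and 7.62), as happened in one direction or the other for 6.75% of all probe sets in this comparison, with a log2 difference of -0.79 (95% interval -1.82 to 0.24).

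On the quercetin diet the genotypes lay close together. The 9 log2 differences of POR-null over WT ran from -0.08 for Agr2 to 0.14 for Spdef, with Fcgbp at -0.07, Retnlb at -0.05, Tff3 at 0.00 and Clca1 at 0.07. The 95% interval for Fcgbp was -0.50 to 0.37, which holds values of either sign. By limma, 0 of 9 genes passed after adjustment (0% of all probe sets) and 0 of 9 had an unadjusted p under 0.05, against 2.39%. The dimmer Muc13 probe set read 9.01, 9.06 and 9.20 in POR-null quercetin pools, against 8.88, 8.86 and 8.57 in WT quercetin pools, which did not overlap, as was the case for 6.82% of all probe sets. Its log2 difference was 0.32 (SE 0.12, unadjusted p 0.0187, adjusted p 0.998 by limma), while the brighter Muc13 probe set differed by 0.04.

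The interaction, the quercetin difference in POR-null minus that in WT, tests whether the response to quercetin depended on genotype. It was -0.66 for Fcgbp (SE 0.28, unadjusted p 0.0374), -0.76 for Retnlb (SE 0.37, unadjusted p 0.0635) and 0.95 for Spdef (SE 0.43, unadjusted p 0.0432), each by limma. Clca1 had -0.29, Tff3 -0.33 and Zg16 0.00. The dimmer Clca1 probe set had -1.48 (SE 0.67, unadjusted p 0.0466, adjusted p 0.998 by limma). The adjusted p of the other 8 genes was 0.998 and that of Zg16 was 1.00, so 0 of 9 genes passed, as did 0% of all probe sets, and 2 of 9 had an unadjusted p under 0.05, against 4.74%. The interaction shares the WT control pools with the comparisons above. It was -0.47 for Fcgbp without WT control pool 2, and -0.50 for Retnlb without pool 3. Without pool 1 it was -0.925 for Fcgbp and -1.10 for Retnlb. For Spdef it was 0.67 without WT quercetin pool 3 and 1.32 without WT quercetin pool 1. Averaged over both genotypes, quercetin differences ran from -0.26 for Spdef to 0.12 for Clca1, and averaged over both diets, genotype differences ran from -0.34 for Spdef to 0.33 for Retnlb. By limma, 0 of 9 genes in each average passed or had an unadjusted p under 0.05, with backgrounds of 3.25% and 4.18% at the unadjusted threshold.

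**Figure D2:**
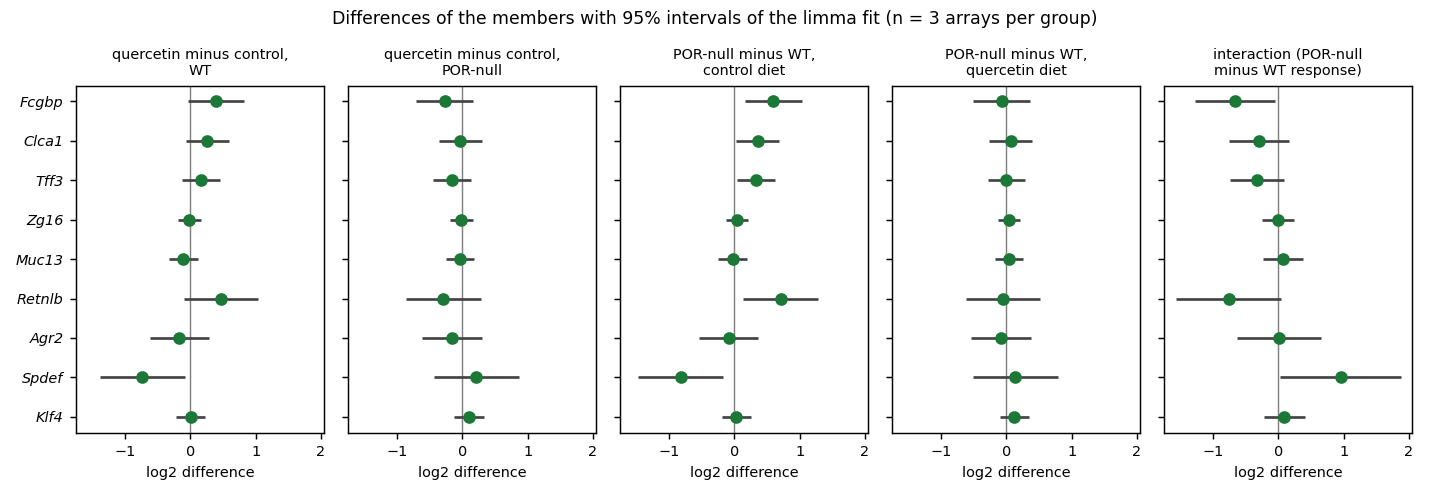
Log2 differences (x axis) of the 9 genes (rows) in 4 comparisons and the interaction, 1 panel each. Points are limma estimates and bars their 95% intervals, from 3 arrays per group. The intervals of Fcgbp, Clca1, Tff3, Retnlb and Spdef leave out 0 for POR-null minus WT on the control diet, before any adjustment for the number of probe sets, and none of the 9 does so on the quercetin diet.

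Fcgbp, Clca1, Tff3 and Retnlb, all secreted products, varied together from pool to pool. Over the 12 arrays, Fcgbp and Clca1 correlated with r = 0.95 (rho = 0.94, adjusted permutation p 3.6e-04), Fcgbp and Tff3 with r = 0.95 (rho = 0.94, adjusted permutation p 3.6e-04) and Clca1 and Tff3 with r = 0.92 (rho = 0.88, adjusted permutation p 8.4e-04). Retnlb correlated with Clca1 at r = 0.86 (rho = 0.94, adjusted permutation p 0.0042), with Fcgbp at r = 0.85 (rho = 0.85, adjusted permutation p 0.0042) and with Tff3 at r = 0.78 (rho = 0.78, adjusted permutation p 0.016). These 6 were the pairs called among 36 between the 9 measured genes, with p adjusted over the 36 pairs, and by rho 7 pairs passed, the added one being Fcgbp with Zg16 (rho = 0.73, adjusted permutation p 0.047). These permutations took no account of the 4 groups. The share of pairs called among all genes was not computed, so the count is not shown to be particular to these genes.

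Pairs were also taken without the 2 arrays farthest from the median of the gene named first here. Then r was 0.83 for Fcgbp with Clca1, 0.86 for Tff3 with Fcgbp and 0.77 for Tff3 with Clca1. It was 0.94 for Clca1 with Retnlb, 0.69 for Fcgbp with Retnlb and 0.55 for Tff3 with Retnlb. On deviations from the group means, 5 of the 6 pairs passed, with r from 0.74 to 0.97. Tff3 with Retnlb did not (r = 0.65, adjusted permutation p 0.126). These permutations treated the 12 deviations as independent, although taking out group means leaves 8 degrees of freedom, so their p are too small. The passes of Fcgbp with Retnlb (r = 0.74, adjusted permutation p 0.0417) and Clca1 with Retnlb (r = 0.80, adjusted permutation p 0.0147) are therefore uncertain. Over the arrays themselves, the call of Tff3 with Retnlb was also lost without WT control pool 3 (adjusted permutation p 0.0529). Between pools of the same group, Fcgbp, Clca1 and Tff3 varied together, with r of 0.92 to 0.97 on the deviations.

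Agr2 and Klf4 had lower correlations with these genes, and none was called. Agr2 had r of 0.15 with Fcgbp, 0.13 with Clca1 and 0.10 with Tff3. Without the 2 arrays farthest from the median of Fcgbp, Clca1 or Tff3 in turn, these were 0.62, 0.22 and 0.45. Klf4 had r of 0.23 with Fcgbp, 0.20 with Clca1 and 0.06 with Tff3, and -0.10, -0.04 and -0.35 with arrays left out in the same way. Muc13 had r between -0.41 and 0.35 with the other genes over all 12 arrays. With Klf4 it had 0.80 without the 2 arrays farthest from the Muc13 median. Spdef ran opposite to the secreted products, with r of -0.71 with Tff3 (rho = -0.65, adjusted permutation p 0.053), -0.67 with Clca1 (rho = -0.59, adjusted permutation p 0.072), -0.64 with Fcgbp (rho = -0.55, adjusted permutation p 0.099) and -0.54 with Retnlb (rho = -0.50, adjusted permutation p 0.247). None of these passed. In the same order, r was -0.38, -0.52, -0.18 and -0.42 without the 2 arrays farthest from a median. That median was of Tff3, Clca1 and Fcgbp in their pairs, and of Spdef in the pair with Retnlb. After quantile normalization the pairs with Tff3 (r = -0.76, adjusted permutation p 0.024) and Clca1 (r = -0.72, adjusted permutation p 0.025) passed. With single arrays left out, the adjusted permutation p of Spdef with Tff3 ran from 0.0215 to 0.257.

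**Figure D3:**
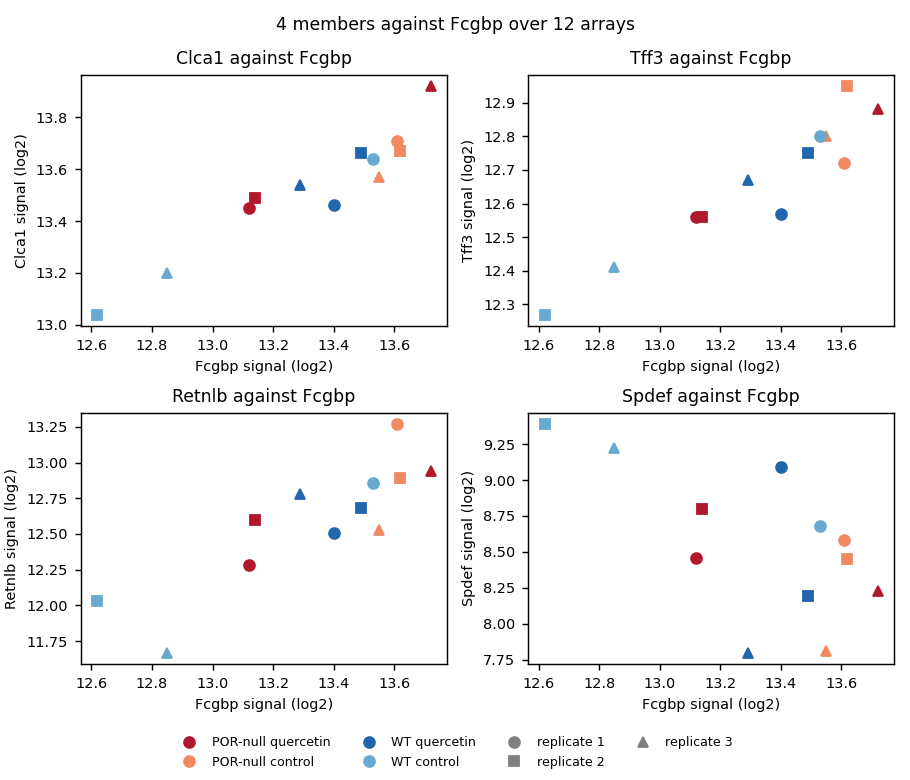
Log2 signal of Clca1, Tff3, Retnlb and Spdef (y axes, 1 panel each) against that of Fcgbp (x axis) in the 12 arrays, coloured by group with the marker giving the replicate number. Clca1 and Tff3 follow Fcgbp closely (r of 0.95 each), Retnlb less so (r of 0.85), and Spdef runs the other way (r of -0.64), with WT control pools 2 and 3 at the low end of Fcgbp.

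Among 7289 other genes, those whose pattern over the 12 arrays was most like Fcgbp were Skap2 (r = 0.95, rho = 0.92), Mptx1 (r = 0.95, rho = 0.91) and Scin (r = 0.95, rho = 0.88). For Retnlb they were Epb41l2 (r = 0.94, rho = 0.94), Pnliprp2 (r = 0.93, rho = 0.95) and Gadd45g (r = 0.92, rho = 0.94). For Spdef they were Tmed7 (r = 0.94, rho = 0.96), Mgst1 (r = 0.94, rho = 0.90) and Syngr2 (r = 0.93, rho = 0.92). These are the highest of many correlations over arrays that share groups, and are given as a description.

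Other goblet cell genes, a list of 30 of which 24 were measured, were examined beside the members. Reg4, a secreted lectin-like protein, read 10.89, 11.79 and 12.45 in POR-null quercetin pools, 12.18, 11.82 and 11.04 in POR-null control pools, 10.58, 11.55 and 11.47 in WT quercetin pools, and 11.96, 9.42 and 10.03 in WT control pools. Mptx1, a pentraxin, read 12.37, 12.24 and 12.99 in POR-null quercetin pools, 12.87, 12.72 and 12.71 in POR-null control pools, 12.15, 12.66 and 12.37 in WT quercetin pools, and 12.84, 11.25 and 11.82 in WT control pools. Both were lowest in WT control pools 2 and 3, as Fcgbp was. Mptx1 is among the genes most like Fcgbp named above, and Reg4 was chosen after its values were seen. Their likeness to Fcgbp is thus a description and no separate evidence. Of the 24 genes, 13 were higher and 11 lower in POR-null than in WT pools on the control diet, with a median log2 difference of 0.06, and 3 (12.5%) had an unadjusted p under 0.05 by limma, against 6.79% of all probe sets, among them Mptx1 (0.80, unadjusted p 0.0231) and Capn9 (0.53, unadjusted p 0.0229). None of the 24 passed after adjustment in any of the 7 comparisons.

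**Figure D4:**
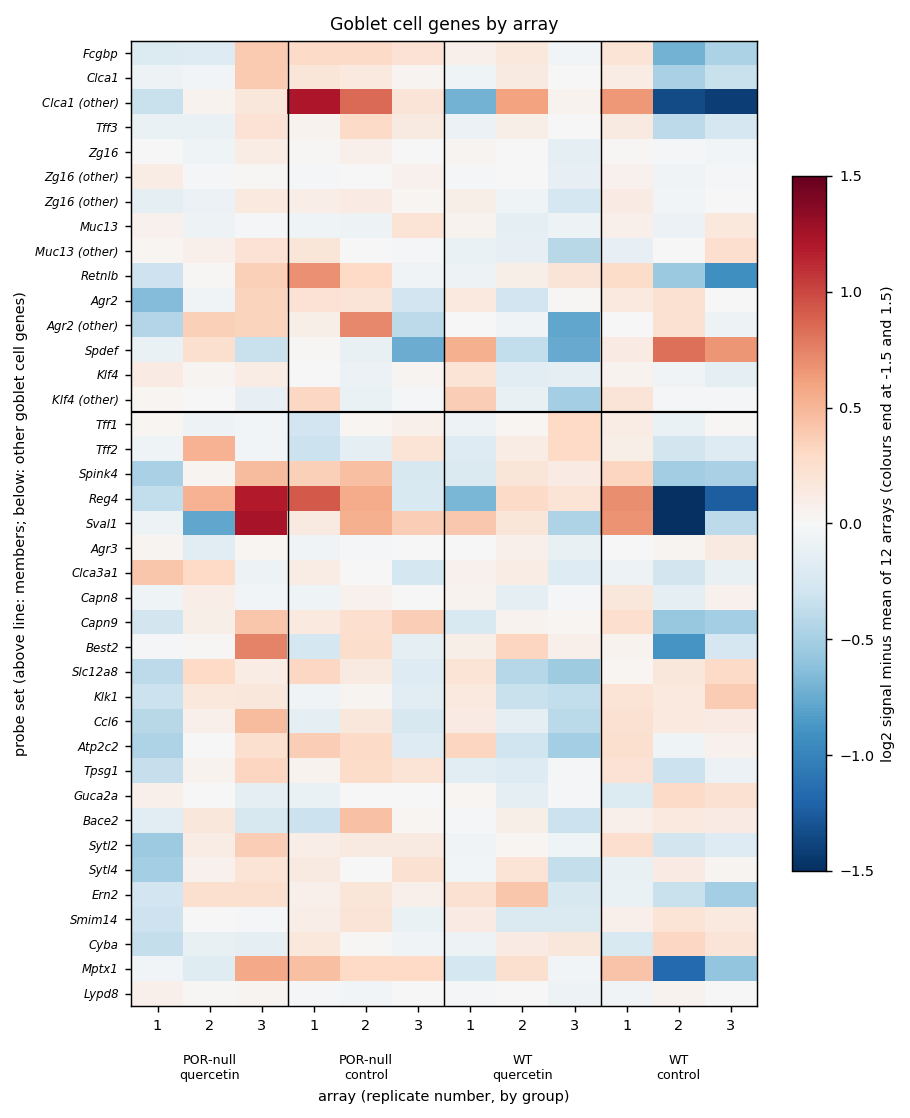
Log2 signal of each probe set minus its mean over the 12 arrays (colour, ending at -1.5 and 1.5), with probe sets of the members above the line and brightest probe sets of 24 other goblet cell genes below it (rows), by array (columns). WT control pools 2 and 3 are low for Fcgbp, Clca1, Retnlb, Reg4 and Mptx1, and high for Spdef.

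Of 10 other mucins listed, 7 were measured. Muc3, a membrane mucin of enterocytes, read 13.06, 13.03 and 12.92 in POR-null quercetin pools and 12.83, 12.99 and 13.05 in POR-null control pools, against 12.79, 12.88 and 12.73 in WT quercetin pools and 12.72, 12.72 and 12.77 in WT control pools. Its groups did not overlap between genotypes on either diet, as was so for 9.67% of all probe sets on the control diet and 6.82% on the quercetin diet, each taken alone. The log2 difference of POR-null over WT was 0.22 on the control diet and 0.20 on the quercetin diet, and averaged over the diets it was 0.21 (SE 0.058, unadjusted p 0.0031, adjusted p 0.997 by limma). It did not pass.

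Transcription factors of secretory cell fate, 31 listed and measured, also gave no gene past the adjusted threshold in any comparison. Foxa1, a forkhead factor of goblet and enteroendocrine cells, read 9.27, 8.85 and 8.87 in WT quercetin pools against 9.33, 9.78 and 9.46 in WT control pools, a log2 difference of -0.53 (unadjusted p 0.0031, adjusted p 0.948 by limma). Elf3, an epithelial ETS factor, read 10.26, 10.12 and 10.06 in POR-null quercetin pools against 10.44, 10.60 and 10.58 in POR-null control pools, a log2 difference of -0.39 (unadjusted p 0.0017, adjusted p 1.00 by limma). Klf5, a Krüppel-like factor of proliferating crypt cells, read 10.88, 10.89 and 10.83 in POR-null control pools against 11.10, 11.21 and 11.12 in WT control pools, a log2 difference of -0.28 (unadjusted p 0.0064, adjusted p 0.710 by limma). For each of these 3 genes, named for their small unadjusted p, the groups did not overlap, as was so for 9.31% of all probe sets for quercetin in WT, 6.75% for quercetin in POR-null and 9.67% for POR-null over WT on the control diet.

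Enzymes that attach and extend the sugars of mucins (38 listed, 32 measured), genes of protein folding and secretion (36 listed, 32 measured) and genes around type 2 immunity (25 listed, 23 measured) held no gene past the adjusted threshold in any of the 7 comparisons. For POR-null over WT on the control diet, 12 of the 32 glycosylation genes were higher and 20 lower, with a median log2 difference of -0.07, and 2 (6.25%) had an unadjusted p under 0.05 by limma, near the 6.79% of all probe sets. These were St3gal6, a sialyltransferase (0.86, unadjusted p 0.0252), and Fut2, a fucosyltransferase (-0.52, unadjusted p 0.0209). For quercetin in WT, 25 of the 32 folding and secretion genes were lower and 6 higher, with a median of -0.10. Over all tested probe sets, 11043 were lower and 11321 higher, with a median of 0.00. Only 1 of the 32 (3.13%) had an unadjusted p under 0.05 by limma, against 5.15% of all probe sets. The lean was not particular to this list, since 22 of the 32 glycosylation genes were lower and 10 higher, also with a median of -0.10.

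Scraped epithelium holds several cell types, and fewer cells of a type and less RNA per cell cannot be told apart in such bulk samples. Marker lists of other cells differed between the same pools. The mean log2 signal of 8 MHC class II genes lay between 7.34 and 8.23 in POR-null control pools and between 6.31 and 7.67 in WT control pools, and 8 of the 8 were higher in POR-null by mean. Of 17 fibroblast and matrix genes, 16 were higher in POR-null control pools, with list means of 6.22 to 7.32 against 5.64 to 6.82 in WT control pools. The 14 B and plasma cell genes averaged 6.64 to 7.40 in POR-null control pools and 6.11 to 6.99 in WT control pools, with 11 higher. The 15 smooth muscle genes averaged 6.37 to 7.73 in POR-null control pools and 6.16 to 6.36 in WT control pools, with 15 higher. WT control pools 2 and 3 were the lowest of the 12 arrays for each of these 4 lists. In contrast, the 17 absorptive colonocyte genes were highest there, with list means of 11.08 and 11.01, against 10.63 to 10.99 in the other 10 arrays. For quercetin in WT, 15 of the 15 smooth muscle genes had higher means, with a median log2 difference of 1.49. So did 8 of the 8 MHC class II genes (median 1.395) and 16 of the 17 fibroblast and matrix genes (median 0.757). The smooth muscle shift was uneven between pools. Its list means were 6.51, 7.69 and 9.44 in WT quercetin pools 1, 2 and 3, so that pool 1 lay close to the WT control pools. The B and plasma cell list had 11 genes up and 3 down, and the absorptive colonocyte list 1 up and 16 down. None of these genes passed after adjustment. The part of these cell types in the differences of the goblet cell, secretory fate and folding genes was not tested.

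Pancreatic acinar genes, which colon epithelium should lack, averaged 9.74 in POR-null quercetin pool 2 and 8.83 in WT control pool 1, against 6.00 to 7.39 in the other 10 arrays. Without both arrays, 0 of the 9 genes passed in any comparison, and the Fcgbp difference of POR-null over WT was 0.86 on the control diet.

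**Figure D5:**
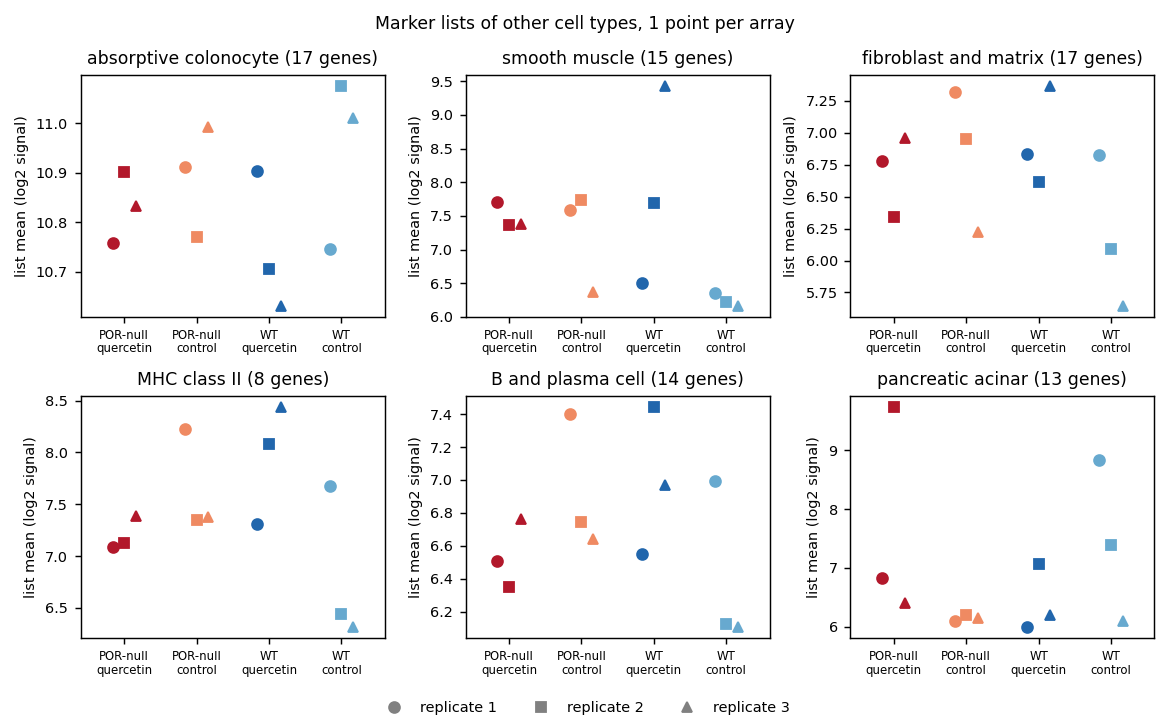
Mean log2 signal (y axis) of marker lists of 6 other cell types, 1 panel each, by group (x axis), with 1 point per array and the marker giving the replicate number. WT control pools 2 and 3 are lowest for the smooth muscle, fibroblast, MHC class II and B and plasma cell lists and highest for the absorptive colonocyte list.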

How the data were processed

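The members and all lists were chosen with earlier results of these data known. The authors' deposited values, for 22690 probe sets on 12 arrays, were taken as log2 signals, a base inferred from their range (2.70 to 14.09), and were used as they stand. MAS5 and RMA are named in the submitters' processing notes, and which of them made the table is not given. The array's own 64 control probe sets entered no test. Of those tested, 20380 had 1 gene symbol in the array annotation, 691 several and 1555 none.

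Group means were compared with limma 3.58.1 (lmFit, eBayes with trend, two-sided) in R 4.3.3, in 1 fit of 4 groups with 7 contrasts and 8 residual degrees of freedom. P-values were adjusted by Benjamini and Hochberg over 22626 probe sets, with a threshold of 0.05. The fit was tested on simulated data with independent normal noise and 200 probe sets changed in WT quercetin arrays. It called 46% of the simulated log2 differences of 0.5 and 92% of those of 1, with 14 false calls. A real difference of the size seen for the members can thus fail to be called. Correlations over 12 arrays had permutation p from 100000 resamples (scipy 1.17.1). They replaced planned correlations with Muc2.

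All members are named. Of the other lists, the text names genes from among those of the smallest unadjusted p in a contrast, with Atoh1, Tff1, Tff2, Reg4, Car1, Aqp8 and Slc26a3 chosen after their values were seen, and the 3 genes most like each of the 3 members of the largest SD. Same-numbered pools of POR-null and WT mice on the control diet deviated together, with correlations of 0.193, 0.106 and 0.260 over probe sets. In the other comparisons these ranged from -0.192 to 0.240. The labels tie no litter or day to a number, and no block entered the fit. The number of arrays, 3 a group, limits the precision. Alternatives were no trend, quantile normalization, array weights, a filter on low signal, a replicate block, fits of 2 groups, 1 array left out and means over probe sets. Leaving out 2 arrays of high acinar signal was added after the data were seen.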

Additional observations from a re-analysis of the deposited data

Results flagged for a closer look

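Genes of the lists beside the members were flagged where every array of a group moved one way against the mean of its comparison group, and every array of the matching comparison moved the other way. The share of all probe sets that meet this rule is not given here, so the flags are a description. These are values on the log2 scale for the interaction, and by limma no interaction passed after adjustment (smallest adjusted p 0.450 over all probe sets). Pparg, a nuclear receptor, had an interaction of 0.45, both as the quercetin response in POR-null minus that in WT and as the genotype difference on the quercetin diet minus that on the control diet (unadjusted p 0.0353, adjusted p 0.998). It averaged 8.20 in POR-null quercetin, 8.07 in POR-null control, 8.03 in WT quercetin and 8.34 in WT control pools. Klf5 had a quercetin response 0.26 higher in POR-null than in WT. Vamp8, a vesicle fusion protein, had an interaction of -0.14 in the quercetin response. Gne, an enzyme of sialic acid synthesis, had a genotype difference on the quercetin diet minus that on the control diet of -0.28.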

How the results depend on the processing

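Member calls stayed at 0 of 9 in every comparison and alternative run except array weights, which called 3 for POR-null over WT on the control diet. The fit of only the groups compared was run for the 4 comparisons of 2 groups, and not for the interaction or the averages. Of 63 member differences, 25 changed sign under some alternative, and the largest of these was 0.22 in size. The cause was not tested. Over all probe sets, array weights called 2 for quercetin in WT and 399 for POR-null over WT on the control diet, against 0 in both. The replicate block and the fit of only the groups compared each called 1 for POR-null over WT on the quercetin diet, and the block changed no other call. Without the 2 arrays of high acinar signal, 46 were called for POR-null over WT on the control diet.

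Quantile normalization gave Zg16 0.0043 for quercetin in POR-null, and Tff3 -0.065 and Clca1 -0.0056 for POR-null over WT on the quercetin diet. Array weights gave Zg16 0.0066 for quercetin in WT, Muc13 0.031 for quercetin in POR-null, Agr2 0.055 for POR-null over WT on the control diet, Tff3 -0.0086 on the quercetin diet, Agr2 -0.12 for the interaction and Muc13 -0.035 for the genotype average. The mean of all probe sets of a gene gave Klf4 -0.058 for quercetin in WT, Muc13 0.005 for quercetin in POR-null, Agr2 0.0017 for POR-null over WT on the control diet and 0.14 on the quercetin diet, Klf4 -0.027 for the quercetin average and Agr2 0.071 for the genotype average. Without the 2 acinar arrays, Zg16 was 0.0033 for quercetin in WT, Clca1 0.035 and Zg16 0.027 for quercetin in POR-null, Fcgbp 0.027 and Spdef -0.015 for POR-null over WT on the quercetin diet, Agr2 -0.038 for the interaction and Zg16 0.015 for the quercetin average.

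With 1 array left out at a time, probe sets called ranged from 0 to 3 for quercetin in WT, 0 to 41 for POR-null over WT on the control diet (41 without WT control pool 1), 0 to 2 for the genotype average, and 0 to 1 for quercetin in POR-null, POR-null over WT on the quercetin diet, the interaction and the quercetin average. Member pairs called ranged from 5 to 9. Differences that changed sign ranged as follows. For quercetin in WT, Zg16 lay between -0.052 and 0.043 and Klf4 between -0.11 and 0.075. For quercetin in POR-null, Muc13 lay between -0.088 and 0.057, Clca1 between -0.18 and 0.055, Agr2 between -0.39 and 0.10, Zg16 between -0.058 and 0.027 and Spdef between -0.018 and 0.37. For POR-null over WT on the control diet, Muc13 lay between -0.12 and 0.028, Agr2 between -0.17 and 0.077 and Klf4 between -0.015 and 0.08. On the quercetin diet, Tff3 lay between -0.10 and 0.057, Fcgbp between -0.26 and 0.037, Clca1 between -0.083 and 0.15, Agr2 between -0.31 and 0.18, Zg16 between -0.01 and 0.087, Spdef between -0.14 and 0.50 and Retnlb between -0.22 and 0.11. For the interaction, Agr2 lay between -0.22 and 0.27. For the quercetin average, Tff3 lay between -0.049 and 0.083, Fcgbp between -0.035 and 0.20, Zg16 between -0.036 and 0.015, Retnlb between -0.039 and 0.26 and Klf4 between -0.0033 and 0.089. For the genotype average, Muc13 lay between -0.038 and 0.036 and Agr2 between -0.20 and 0.048. The planned correlations with Muc2 were not run.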
